A study of Rattus norvegicus with 12 samples.

Results

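The genes described here encode integrin beta 1 (Itgb1) and 9 alpha subunits that pair with it, Itga1, Itga2, Itga3, Itga4, Itga5, Itga6, Itga7, Itga8 and Itga11. They were 10 of the 33294 genes in the count table of rat PAC1 cells, a pulmonary artery smooth muscle cell line cultured towards its more differentiated state. The set was chosen by the level of Itgb1 RNA, which was strongly lower after RBFOX2 knockdown (KD) than in control, so every value of RBFOX2 KD against control is given as a description and without a test. Of the 10 genes, 9 passed the filter on low counts, and Itga4 did not.

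RNA of 12 libraries was sequenced after poly(A) selection, 3 in each of 4 groups. Cells of the control group received the C2 siRNA, and those of the other groups an siRNA against RBPMS, RBFOX2 or QKI (gene symbol Qk in the rat), which are RNA-binding proteins that regulate splicing. In every group 90 pmol of siRNA was delivered by lipofection and again after 24 h, and the cells were taken 48 h later according to the sample labels, whereas the study's methods give longer intervals. The study asked how these proteins shape the transcriptome of differentiated smooth muscle cells. It reports that control cells of its experiment with these knockdowns were less differentiated than those of its other experiment. The oligonucleotide list holds a single siRNA for each target, so loss of the target and other effects of that siRNA cannot be told apart. The study states biological replicates, but the labels do not say which cultures were separate, so the p-values measure the spread between these libraries.

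Integrins are receptors of an alpha and a beta chain that cross the cell membrane. They bind matrix proteins outside the cell and, through talin, kindlin and other linkers, the actin cytoskeleton inside it. Beta 1 is the shared partner of the largest group of alpha chains, and an alpha chain needs a beta chain to leave the endoplasmic reticulum. In smooth muscle, the collagen receptor alpha 1 beta 1, the fibronectin receptor alpha 5 beta 1 and the laminin receptor alpha 7 beta 1 anchor cells to the matrix, and alpha 7 and alpha 8 are associated with the contractile state. The alpha subunits of the set fall into collagen receptors (Itga1, Itga2, Itga11), laminin receptors (Itga3, Itga6, Itga7) and receptors for fibronectin and related ligands (Itga4, Itga5, Itga8).

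The sense strands of the siRNAs are shown because they are all that separates the 4 groups. Capitals mark the bases opposite guide positions 2 to 8, the seed, assuming a guide fully complementary to the listed 19 bases, and the longer C2 and RBPMS oligonucleotides are left in lower case. No match between these sequences and the integrin mRNAs was sought.
C2: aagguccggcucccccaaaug
RBPMS: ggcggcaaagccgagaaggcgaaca
RBFOX2: gcaaugguucaGCCUUUUa
QK: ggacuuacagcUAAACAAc

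The libraries held between 110595399 and 151665474 counts. Each targeted RNA was lower in its own knockdown, Rbpms by a log2 fold change of -2.497 (edgeR's quasi-likelihood test, adjusted p = 7.28e-15), Rbfox2 by -2.05 and Qk by -3.13 (edgeR, adjusted p = 3.22e-19). The targets also differed from control in the other knockdowns. Rbpms was at -0.81 in RBFOX2 KD and -0.49 in QKI KD (edgeR, adjusted p = 9.32e-07). Qk was at -0.42 in RBFOX2 KD and 0.18 in RBPMS KD (edgeR, adjusted p = 2.97e-04). Rbfox2 was at -0.12 in RBPMS KD (edgeR, adjusted p = 0.0193) and -0.15 in QKI KD (edgeR, adjusted p = 0.00428), and neither passed under every alternative. The RBPMS KD library 2 stood apart from its replicates, with a chi-square per degree of freedom of 57.8 and 45.6 against them, whereas no other pair within a group exceeded 21.5. The summed level of 8 smooth muscle markers ran from 2110 to 2175 CPM (counts scaled to library size) in control, 1069 to 1176 in RBPMS KD, 827 to 925 in RBFOX2 KD and 1441 to 1526 in QKI KD. Not all of them were lower, since Myh11 was 6.48 CPM in control and 13.4 in RBFOX2 KD, and Myocd was 22.1 in control and 38.1 in QKI KD. The summed level of 5 leukocyte markers was 1.82 to 2.07 CPM in control and 6.11 to 6.40 in QKI KD, where most of the rise was Csf1r (0.405 to 3.63 CPM), while the defining marker Ptprc had 2 counts in each QKI KD library. The summed level of 5 epithelial markers was 29.5 to 31.7 CPM in control and 72.0 to 73.9 in RBFOX2 KD and was nearly all Krt8. Epcam (0.0588 CPM in control, 0.368 in QKI KD) and Cdh1 (0.0815 and 0.391) were changed higher in QKI KD. That of 5 endothelial markers was 7.51 to 9.10 CPM in control and 4.35 to 9.10 over all groups, with Kdr near 0. Most of it was Cdh5, at 6.77 CPM in control and 2.98 in QKI KD, whereas Pecam1 and Tie1 were changed higher in RBPMS KD and QKI KD at levels of at most 0.302 CPM. That of 5 skeletal and cardiac muscle markers was 12.1 to 13.9 CPM in control and 20.2 to 23.0 in QKI KD, mostly Des, with Myog and Myh6 near 0. The part of these marker differences in the integrin results was not tested. In bulk RNA, fewer cells that express a gene and less of its RNA per cell cannot be told apart.

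Itgb1, the beta chain, is described first. Its level, in CPM scaled by the trimmed mean of M values, was 2117, 2149 and 2174 in the control libraries and 331, 343 and 331 in RBFOX2 KD. It was 1726, 1668 and 1729 CPM in RBPMS KD and 1945, 1963 and 1970 in QKI KD. All 4 groups were separate, in the order control, QKI KD, RBPMS KD and RBFOX2 KD, and the libraries of no group overlapped those of another. The fitted log2 fold change of RBFOX2 KD against control was -2.68 (SE 0.031). Among the 10707 genes that averaged 5 CPM or more, only 2 had a lower fold change in that comparison.

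Itgb1 also fell in RBPMS KD, by 0.33 on the log2 scale (SE 0.029; edgeR, adjusted p = 3.74e-08). In QKI KD its fitted log2 fold change was -0.13 (edgeR, adjusted p = 7.80e-04), but this call rested on the scaling. It was -0.05 with library totals alone (adjusted p = 0.175) and 0.07 in the authors' normalised table (limma, adjusted p = 0.0647). Itgb1 was 0.20 higher on the log2 scale in QKI KD than in RBPMS KD (edgeR, adjusted p = 1.56e-05). Tests of Itgb1 against control reuse the control libraries that entered its choice, so their p-values are not independent of that choice.

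**Figure D1:**
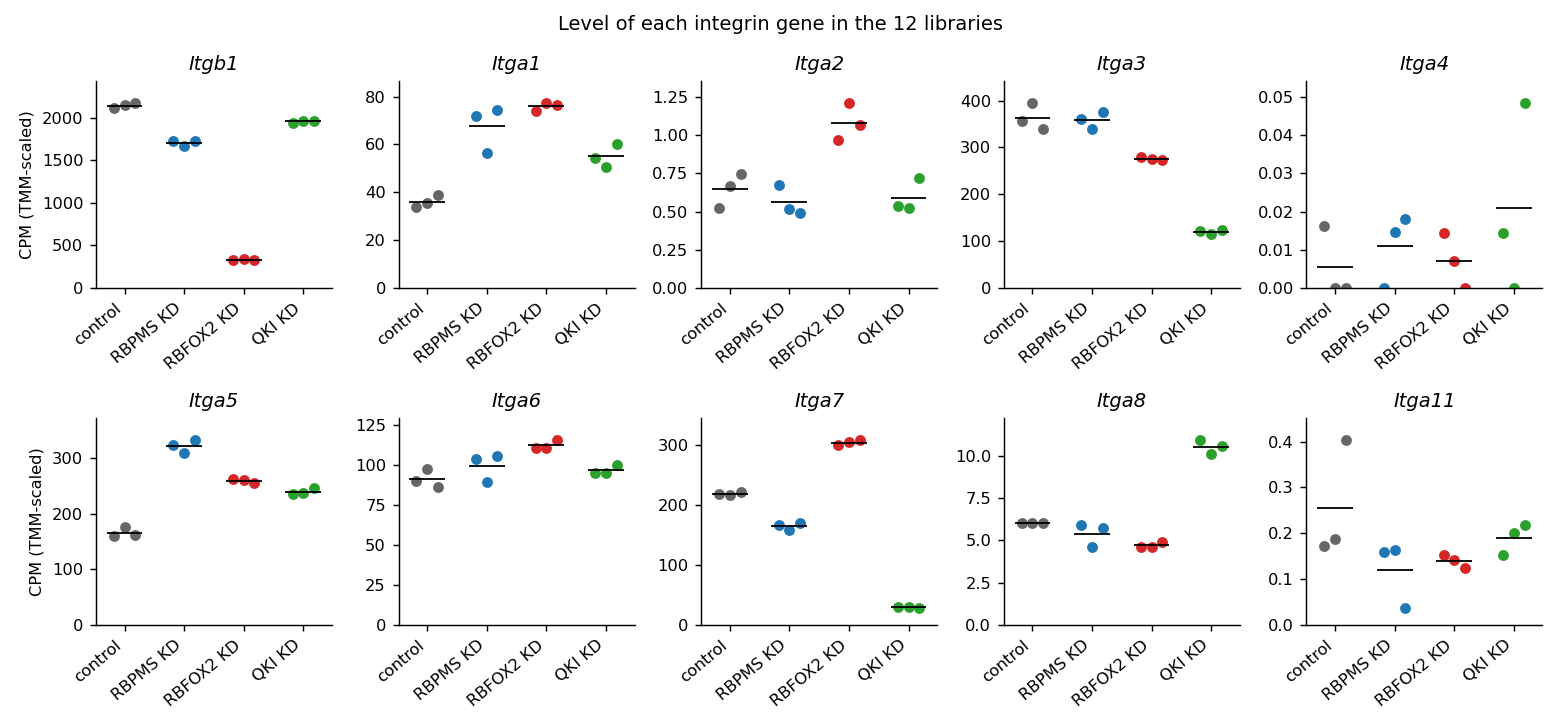
Level of each of the 10 integrin genes in CPM (linear axes starting at 0, a scale of its own for each gene), with 1 point per library and a line at the mean of each group of 3. Itgb1 is at 331 to 343 CPM in the RBFOX2 KD libraries, Itga7 and Itga3 are lowest in QKI KD, and Itga8 is highest there.

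The laminin receptor genes carried the strongest change outside RBFOX2 KD. Itga7, the alpha chain of the main muscle laminin receptor, was 218, 217 and 221 CPM in control and 28.7, 29.5 and 28.2 in QKI KD. It was 166, 159 and 170 CPM in RBPMS KD and 300, 304 and 308 in RBFOX2 KD. The 4 groups did not overlap, with RBFOX2 KD highest, then control, RBPMS KD and QKI KD. In QKI KD it fell by 2.93 on the log2 scale (SE 0.036; edgeR, adjusted p = 2.53e-19), and 29 of the 10707 genes with at least 5 CPM had a lower fold change. It fell in RBPMS KD too, by 0.41 (SE 0.033; edgeR, adjusted p = 1.04e-08). The direct comparison of QKI KD with RBPMS KD gave -2.52 (SE 0.036; edgeR, adjusted p = 1.46e-18). In RBFOX2 KD the log2 fold change was 0.47 (SE 0.033).

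Itga3, whose product pairs with beta 1 to bind laminins and forms complexes with tetraspanins, was 356, 394 and 339 CPM in control and 122, 116 and 123 in QKI KD. It was 362, 340 and 376 CPM in RBPMS KD and 280, 276 and 272 in RBFOX2 KD. Control and RBPMS KD overlapped, RBFOX2 KD lay below both, and QKI KD lay below all. Itga3 fell by 1.60 on the log2 scale in QKI KD against control (SE 0.050; edgeR, adjusted p = 2.01e-14) and by 1.58 against RBPMS KD (edgeR, adjusted p = 4.09e-14). In RBPMS KD against control the log2 fold change was -0.02, with a 95% interval of -0.11 to 0.08 (edgeR, adjusted p = 0.784). The value in RBFOX2 KD was -0.40 (SE 0.049).

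Itga6, the third laminin receptor chain, ranged from 86.3 to 97.5 CPM in control, 89.4 to 106 in RBPMS KD, 95.04 to 100.2 in QKI KD and 111 to 116 in RBFOX2 KD. Only the RBFOX2 KD libraries did not overlap control, at a log2 fold change of 0.30 (SE 0.056). The log2 fold change was 0.12 in RBPMS KD (edgeR, adjusted p = 0.0683) and 0.08 in QKI KD (95% interval -0.03 to 0.19; edgeR, adjusted p = 0.203). The call in RBPMS KD depended on single libraries and on the filter. The value was 0.19 without RBPMS KD library 2 (edgeR, adjusted p = 0.000412) and 0.17 without control library 2 (edgeR, adjusted p = 0.0220), and with no filter on low counts it was 0.11 (edgeR, adjusted p = 0.0458). In QKI KD Itga6 passed with library totals (0.17; edgeR, adjusted p = 0.0161) and in the authors' normalised table (0.14; limma, adjusted p = 0.0289).

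Among the collagen receptors, Itga1 rose in the tested knockdowns. It was 33.9, 35.3 and 38.9 CPM in control, 71.9, 56.6 and 74.4 in RBPMS KD, and 54.3, 50.7 and 60.1 in QKI KD. In RBFOX2 KD it was 73.9, 77.2 and 76.6 CPM. All knockdown libraries lay above all controls, while RBPMS KD overlapped QKI KD through its library 2 and RBFOX2 KD through its library 3. The log2 fold change was 0.91 in RBPMS KD (SE 0.083; edgeR, adjusted p = 5.37e-08) and 0.61 in QKI KD (SE 0.083; edgeR, adjusted p = 4.72e-06). It was 1.07 in RBFOX2 KD (SE 0.083). QKI KD was 0.30 lower than RBPMS KD (edgeR, adjusted p = 0.00483), which did not pass when only library totals were used (-0.17, adjusted p = 0.0922). The span of Itga1 in the RefSeq table holds that of Pelo, a ribosome rescue factor. Pelo was 73.3 CPM in control, 131 in RBPMS KD, 119 in QKI KD and 101 in RBFOX2 KD, with log2 fold changes of 0.83 (edgeR, adjusted p = 4.09e-10), 0.70 (edgeR, adjusted p = 1.90e-09) and 0.46. Whether the authors' counting separated reads of the overlapping genes is not given in the sources used here.

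Itga2 and Itga11, the other collagen receptor chains of the set, had low counts. Itga2 had 54 to 170 counts per library, which was 0.523 to 0.749 CPM in control, 0.491 to 0.677 in RBPMS KD, 0.522 to 0.718 in QKI KD and 0.969 to 1.21 in RBFOX2 KD. Only RBFOX2 KD did not overlap control (log2 fold change 0.74, SE 0.19). Neither tested knockdown passed the threshold, at -0.21 in RBPMS KD (edgeR, adjusted p = 0.396) and -0.13 in QKI KD (edgeR, adjusted p = 0.583).

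Itga11 had 21, 28 and 55 counts in control, 17, 22 and 4 in RBPMS KD, 21, 23 and 27 in QKI KD, and 21, 20 and 17 in RBFOX2 KD. Control library 3 was the highest of the 12 and RBPMS KD library 3 the lowest. In RBPMS KD the log2 fold change was -1.07 (95% interval -1.96 to -0.18; edgeR, adjusted p = 0.0534), and it ranged from -1.38 to -0.57 when single libraries were left out. In QKI KD it was -0.43 (edgeR, adjusted p = 0.396). Over all genes 68.1% of the counts between 1 and 19 were even, against 50.9% of those above 1000, so low counts may not be single fragments and no counting intervals are given for them.

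The receptors for fibronectin and related ligands moved in different directions. Itga5, which pairs with beta 1 as the main fibronectin receptor, was 160, 176 and 163 CPM in control and 325, 310 and 334 in RBPMS KD. It was 236, 238 and 246 CPM in QKI KD and 264, 261 and 256 in RBFOX2 KD. The groups did not overlap, and control was lowest. Itga5 rose by 0.96 on the log2 scale in RBPMS KD (SE 0.040; edgeR, adjusted p = 2.23e-12) and by 0.53 in QKI KD (SE 0.039; edgeR, adjusted p = 1.85e-09). It was 0.43 lower in QKI KD than in RBPMS KD (edgeR, adjusted p = 4.92e-08). In RBFOX2 KD the log2 fold change was 0.65 (SE 0.039).

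Itga8, whose product binds nephronectin and other ligands with the RGD motif, was 6.00, 6.04 and 6.01 CPM in control and 10.96, 10.1 and 10.6 in QKI KD. It was 5.89, 4.60 and 5.73 CPM in RBPMS KD and 4.62, 4.58 and 4.91 in RBFOX2 KD. QKI KD lay above all other libraries, RBPMS KD lay below control by little, and RBPMS KD and RBFOX2 KD overlapped. Itga8 rose by 0.81 on the log2 scale in QKI KD (SE 0.078; edgeR, adjusted p = 6.13e-08), and the difference from RBPMS KD was 0.97 (SE 0.080; edgeR, adjusted p = 1.08e-08). In RBPMS KD against control it was -0.16 (edgeR, adjusted p = 0.102), which passed with library totals (-0.20; edgeR, adjusted p = 0.0440) and without RBPMS KD library 1 (-0.23; edgeR, adjusted p = 0.0323). In RBFOX2 KD it was -0.36 (SE 0.081).

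Itga4, a chain that binds fibronectin and Vcam1 and is common on leukocytes, had 2, 0 and 0 counts in control, 0, 2 and 2 in RBPMS KD, 2, 1 and 0 in RBFOX2 KD, and 2, 0 and 6 in QKI KD. Only QKI KD library 3, at 0.0484 CPM, had more than 3 counts, a number that is 0.0198 to 0.0271 CPM in these libraries. No fold change is given for Itga4.

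**Figure D2:**
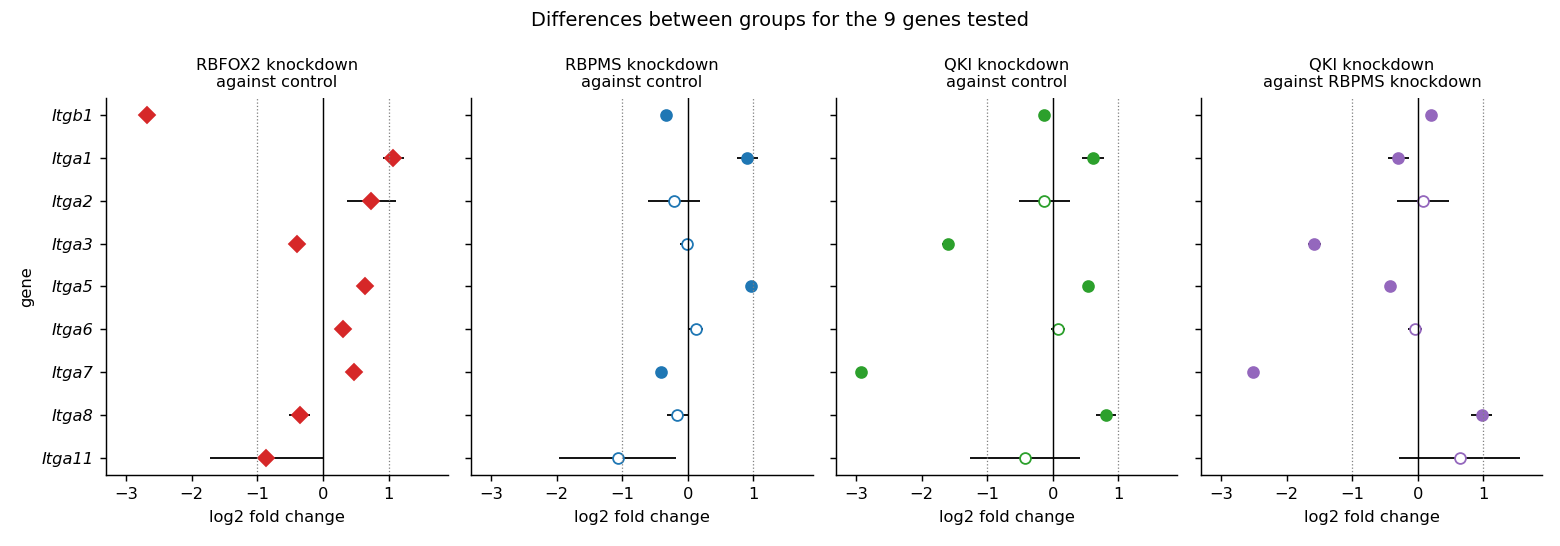
Fitted log2 fold changes of the 9 genes tested, with nominal 95% intervals from normal quantiles (bars, hidden where shorter than the symbol). Dotted lines are at -1 and 1. Filled circles have an adjusted p under 0.05 and open circles do not, while diamonds mark RBFOX2 KD, which is a description. Itgb1 stands at -2.68 in RBFOX2 KD and Itga7 at -2.93 in QKI KD.

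A gene was called changed when its adjusted p was under 0.05 and its absolute log2 fold change above 1. None of the 9 genes tested was changed in RBPMS KD with edgeR, against 9.66% of all 18438 genes tested. At an unadjusted p under 0.05, 6 of the 9 passed, against 62.7% of all genes, and 1 of these, Itga11, also had the fold, against 10.2%. DESeq2 called that 1 gene. By adjusted p alone 4 of the 9 passed, 2 higher (Itga1, Itga5) and 2 lower (Itgb1, Itga7), against 59.4% of all genes, 30.4% higher and 29.0% lower. Without control library 2 the count of changed genes was 2 (Itga5 and Itga11), and without RBPMS KD library 2 it was 2 (Itga1 and Itga11).

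In QKI KD 2 of the 9 were changed, Itga3 and Itga7, both lower, against 17.5% of all genes, 9.24% lower. By adjusted p alone 6 passed, 3 higher (Itga1, Itga5, Itga8) and 3 lower (Itgb1, Itga3, Itga7), against 66.9% of all genes, 32.9% higher and 34.0% lower. Between QKI KD and RBPMS KD 2 were changed, again Itga3 and Itga7 and both lower, against 12.2% of all genes, 6.53% lower, and 6 passed by adjusted p alone, against 61.0%. Those comparisons share libraries, so the values are given side by side and their overlap is not read. In RBFOX2 KD, Itgb1 and Itga1 had an absolute log2 fold change above 1 (background 13.4%, with no test) and the libraries of all 9 genes were apart from control (background 68.6%). That contrast chose the set, and nothing is read from its counts. The median log2 fold change of the 9 genes was -0.16 in RBPMS KD and -0.13 in QKI KD, beside medians of 0.01 over all genes in each.

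The make-up of the alpha counts differed between the groups. The summed level of the 9 alpha genes was 883 ± 38.9 CPM in control (SD, n = 3), 1020 ± 54.3 in RBPMS KD, 1035 ± 0.739 in RBFOX2 KD and 552 ± 15.2 in QKI KD. The Itgb1 count per summed alpha count was 2.43 ± 0.112 in control, 1.68 ± 0.0579 in RBPMS KD, 0.324 ± 0.00673 in RBFOX2 KD and 3.55 ± 0.0878 in QKI KD. The ratio was thus lowest where Itgb1 was low and highest where Itga3 and Itga7 were low, with no overlap between groups. Alpha chains outside the set, such as Itgav at 286 CPM in control, are not in these sums. These counts are not scaled for transcript length, so a ratio is read only against the same ratio in another group and is no measure of chains or receptors.

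Itga7 held 24.8 ± 1.25% of the alpha counts in control and 5.22 ± 0.259% in QKI KD, while it was 16.2 ± 0.323% in RBPMS KD and 29.4 ± 0.413% in RBFOX2 KD. Itga3 went from 41.1 ± 1.44% in control to 21.7 ± 0.416% in QKI KD. Itga5 took 18.8 ± 0.305% in control, 31.7 ± 0.564% in RBPMS KD, 25.1 ± 0.387% in RBFOX2 KD and 43.5 ± 0.536% in QKI KD. The Itga6 share was 10.4 ± 0.228% in control and 17.5 ± 0.120% in QKI KD, beside a log2 fold change of 0.08 in its own level. A share also moves with the other genes. These shares are a description.

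**Figure D3:**
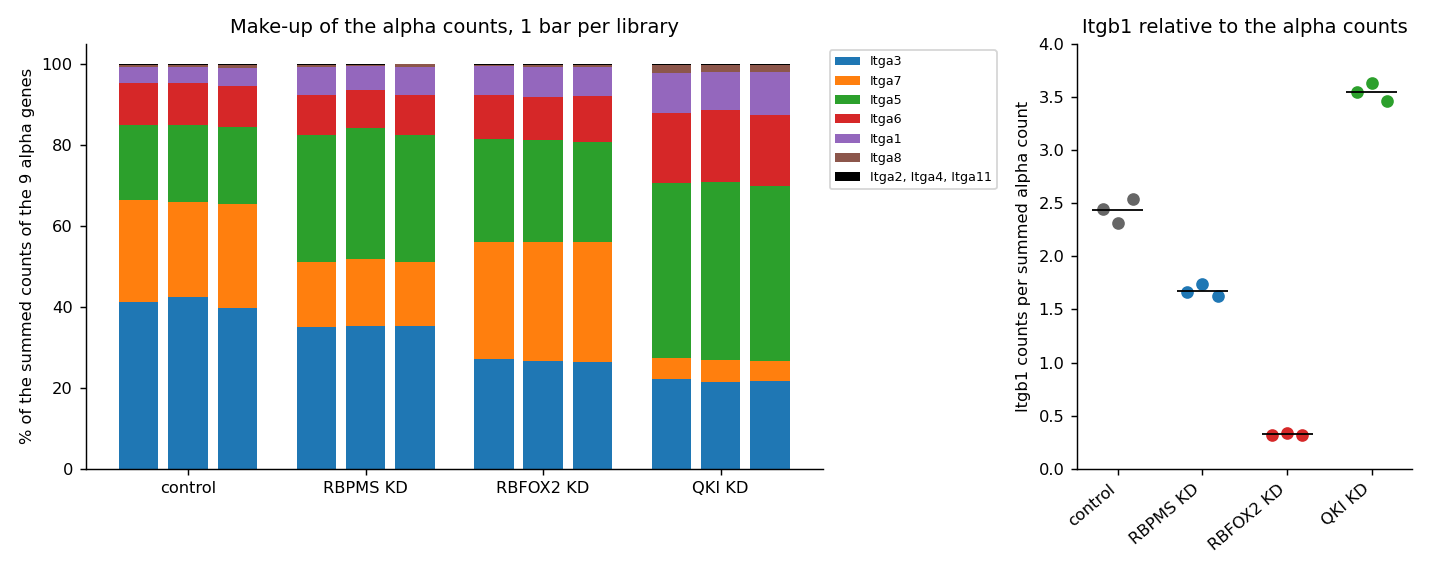
Left, the share of each alpha gene in the summed alpha counts (percent), with 1 bar per library and 3 per group. Right, Itgb1 counts per summed alpha count for each library (points) with the group mean (line). Itga7 shrinks to about 5.22% and Itga5 grows to 43.5% in QKI KD, and the Itgb1 ratio is 0.324 in RBFOX2 KD and 3.55 in QKI KD.

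The genes whose profile over the 12 libraries was nearest to that of Itgb1 were found by the root mean square difference of log2 CPM, each centred on its own mean, among the 10707 genes. They were Inpp5a, an inositol polyphosphate phosphatase (0.113), Mfsd11 (0.200), Dpagt1, which starts the lipid-linked sugar of N-glycans (0.205), Bcl10, an adaptor of NF-kB signalling (0.211), and Rbfox2 itself (0.265). Their log2 fold changes in RBFOX2 KD were -2.47, -2.19, -2.15, -2.22 and -2.05. Inpp5a differed from control by -0.36 in RBPMS KD and -0.20 in QKI KD, beside -0.33 and -0.13 for Itgb1. All these libraries share the same groups, so the likeness mostly states that these genes were low in RBFOX2 KD.

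Of the 9 alpha genes of the set, Itga3 had the highest mean CPM over the 12 libraries, although Itga7 was higher in RBFOX2 KD and Itga5 in QKI KD. The genes nearest to it were RGD1309104 (0.0782), Myadm, a membrane raft protein (0.0791), Rabif, a Rab GTPase chaperone (0.0846), Rab21, a GTPase that binds integrin alpha tails and moves integrins through endosomes (0.0867), and Smurf2, a ubiquitin ligase (0.0921). Their log2 fold changes in QKI KD lay between -1.67 and -1.43, beside -1.60 for Itga3. They were picked for a profile near that of Itga3, so these close values follow from the choice.

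**Figure D4:**
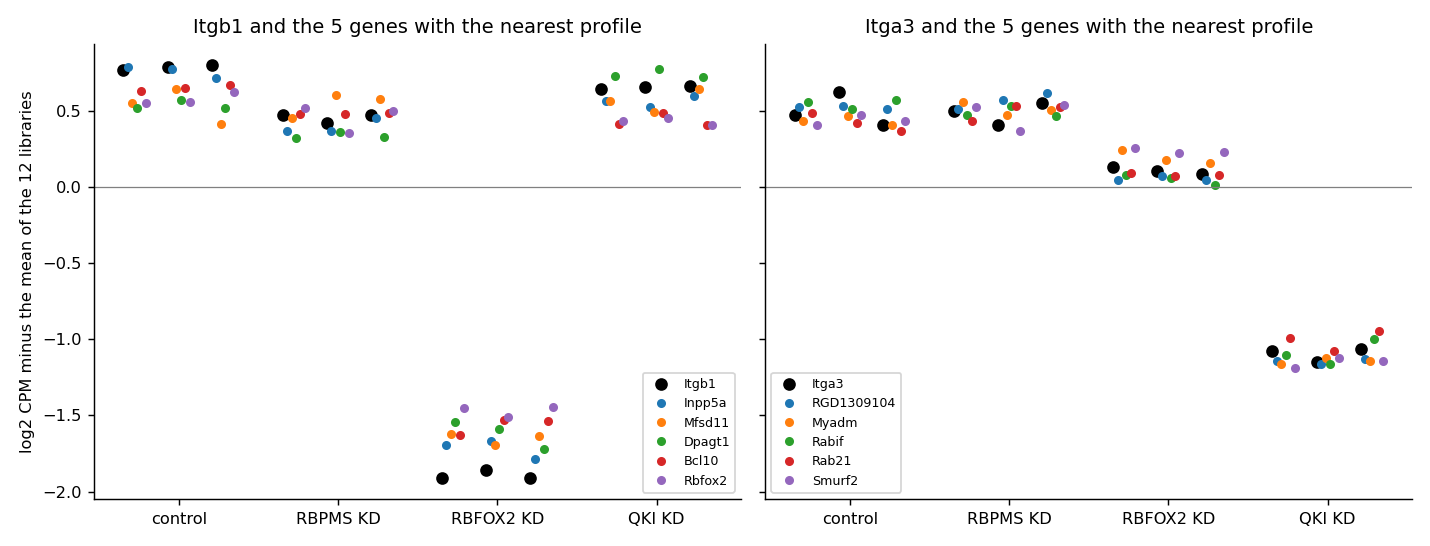
Log2 CPM minus the mean of the 12 libraries for Itgb1 (left) and Itga3 (right) and the 5 genes nearest to each, with 1 point per library and gene. The left set is low in RBFOX2 KD and the right set in QKI KD.

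The promoters of Itga1 and Itga5 are shown because these genes rose together in RBPMS KD and QKI KD. They are RefSeq sequences of build GRCr8, not the build the reads were aligned to, from 250 bases before to 50 after the start. Capitals mark the GC box, GGGCGG on either strand. Itga1 lies at chr2:48545234-48545533 and Itga5 at chr7:136381256-136381555, both on the minus strand.
Itga1: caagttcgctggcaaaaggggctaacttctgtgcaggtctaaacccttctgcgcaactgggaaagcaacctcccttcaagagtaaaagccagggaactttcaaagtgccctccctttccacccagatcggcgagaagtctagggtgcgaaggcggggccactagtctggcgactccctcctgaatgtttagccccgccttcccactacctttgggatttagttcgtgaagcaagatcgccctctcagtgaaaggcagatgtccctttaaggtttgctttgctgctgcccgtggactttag
Itga5: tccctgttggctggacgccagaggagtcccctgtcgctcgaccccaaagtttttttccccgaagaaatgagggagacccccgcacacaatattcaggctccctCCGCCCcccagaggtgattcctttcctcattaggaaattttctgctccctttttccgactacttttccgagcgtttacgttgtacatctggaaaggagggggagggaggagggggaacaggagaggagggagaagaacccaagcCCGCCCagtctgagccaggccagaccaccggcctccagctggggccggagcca
Of the 10 genes, 8 had a promoter in the table. The GC box was found in 5 of them (Itgb1, Itga2, Itga3, Itga5 and Itga11), against 33.1% of 33469 promoters of the same length, with 4 copies in Itgb1, 2 in Itga5 and none in Itga1. The sequence TATAAA on either strand was in 0 of the 8, against 14.2%. The CArG box, the element that serum response factor binds in contractile genes, was also in 0 of the 8, against 1.64%. A match or its absence in this window is a description of the letters.

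Other genes of integrin adhesion came from 6 lists with 73 genes, of which 68 were tested. In RBPMS KD 7 of the 68 were changed, 3 higher and 4 lower, and in QKI KD 18, 3 higher and 15 lower. That is beside 9.66% and 17.5% of all genes, with 9.24% of all genes changed lower in QKI KD. The same shares stand beside the counts of changed genes given by list below. The median log2 fold change of the 68 genes was -0.03 in RBPMS KD and -0.17 in QKI KD, against 0.01 over all genes in each. In RBFOX2 KD 6 had an absolute log2 fold change above 1, given with no test, Itgax, Col1a2 and Tnc higher and Itga9, Nid1 and Lims2 lower.

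Of 14 other integrin subunits tested, 3 were changed in RBPMS KD (Itgax higher, Itgb8 and Itga9 lower) and 5 in QKI KD (Itgax higher, Itgb8, Itga9, Itga10 and Itgb5 lower). Itgax, a leukocyte integrin chain, was 0.361 CPM in control, 2.26 in RBPMS KD, 2.64 in RBFOX2 KD and 2.86 in QKI KD, at log2 fold changes of 2.63 in RBPMS KD (edgeR, adjusted p = 2.00e-09) and 2.97 in QKI KD (edgeR, adjusted p = 1.58e-10). Itgax and Itga10, both below 5 CPM, were named after their values were seen, as were Lims2, Fermt3, Col1a1, Hspg2 and Fn1 elsewhere in these lists. Itgb8, which pairs with alpha v and takes part in TGF-beta activation, was 40.2 to 46.3 CPM in control, 10.4 to 13.7 in RBPMS KD, 26.0 to 28.5 in RBFOX2 KD and 3.02 to 3.90 in QKI KD. The groups did not overlap, and the log2 fold change was -1.86 in RBPMS KD (edgeR, adjusted p = 2.05e-11) and -3.70 in QKI KD (edgeR, adjusted p = 4.71e-15). Itga9, among the chains outside the set that can pair with beta 1, binds tenascin and other ligands. It fell by 1.19 in RBPMS KD (edgeR, adjusted p = 6.33e-11) and by 2.04 in QKI KD (edgeR, adjusted p = 3.62e-14), from 19.1 CPM in control.

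Itgb5, a partner of alpha v in the vitronectin receptor, was 815 CPM in control and 402 in QKI KD, a log2 fold change of -1.02 (edgeR, adjusted p = 2.52e-14). It missed the fold criterion with library totals (-0.93), with a mean of at least 200 counts (-0.986) and in the normalised table (-0.895). In RBPMS KD the value of Itgb5 was 0.02 (edgeR, adjusted p = 0.624). Itgav, the alpha v chain, was 286 CPM in control and differed by -0.18 in QKI KD (edgeR, adjusted p = 0.00204), which did not pass when only library totals were used (-0.10, adjusted p = 0.0761). Itgb3, which also pairs with alpha v, went from 2.55 to 1.69 CPM in QKI KD (-0.59; edgeR, adjusted p = 7.36e-04). In RBFOX2 KD the log2 fold changes of Itgb5, Itgav and Itgb3 lay between -0.89 and 0.40.

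Of the extracellular ligands 3 of 18 were changed in RBPMS KD, Col1a1 and Col1a2 higher and Nid1 lower, and 5 in QKI KD, Col1a1 higher and Npnt, Spp1, Vcam1 and Hspg2 lower. Col1a1 missed the fold criterion without control library 1 or 2 in both comparisons, and also without RBPMS KD library 1 (0.96) or QKI KD library 2 (0.95). Hspg2 missed it without control library 3 (-0.96) or QKI KD library 3. With library totals Col1a1 missed it in RBPMS KD (0.99) and Hspg2 in QKI KD (-0.96). In the normalised table Col1a1 missed it in RBPMS KD (0.91) and QKI KD (0.80), and Hspg2 in QKI KD (-0.92). Fn1, fibronectin, passed both criteria in RBPMS KD in that table (-1.27; limma, adjusted p = 1.12e-12), beside -0.85 in the main fit (edgeR, adjusted p = 3.87e-08). Npnt, nephronectin, the ligand of alpha 8 beta 1, was 47.9 to 49.6 CPM in control and 4.68 to 5.86 in QKI KD, a log2 fold change of -3.23 (edgeR, adjusted p = 1.22e-15), where Itga8 rose. Spp1, osteopontin, fell by 2.60 on the log2 scale in QKI KD (edgeR, adjusted p = 1.67e-14), and Vcam1, a ligand of alpha 4 and alpha 9, by 1.78 (edgeR, adjusted p = 7.51e-13). Col1a2, a chain of type I collagen, rose by 1.15 in RBPMS KD (edgeR, adjusted p = 7.39e-11) and fell by 0.58 in QKI KD (edgeR, adjusted p = 2.55e-07). Nid1, the basement membrane protein nidogen, fell by 1.28 in RBPMS KD (edgeR, adjusted p = 8.30e-11) and by 0.55 in QKI KD (edgeR, adjusted p = 1.73e-06). Tnc, tenascin C, had a log2 fold change of 1.57 in RBFOX2 KD.

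On the cytoplasmic side, 3 of the 7 activators tested (talins, kindlins and Rap1 genes among them) passed by adjusted p alone in RBPMS KD, a share below the 59.4% of all genes, with log2 fold changes of all 7 between -0.39 and 0.25. In QKI KD all 7 passed by adjusted p alone, 2 higher and 5 lower, against 66.9% of all genes, 32.9% higher and 34.0% lower. By both criteria 1 was changed, Fermt3, the kindlin of blood cells, at a level below 1 CPM (log2 fold change 1.52). Of the 4 inhibitors, Dok1, which competes with talin for the beta tail, fell by 1.00 in QKI KD (edgeR, adjusted p = 3.93e-13). It missed the fold criterion in DESeq2 (-0.997), with RLE size factors (-0.996), library totals (-0.92) or halved counts (-0.99), and with a mean of at least 200 counts (-0.97). It also missed it in the normalised table (-0.91). Without control library 2 or 3 or QKI KD library 1 or 3 it missed it too, the weakest of these fits giving -0.987.

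Of 16 linker and signalling genes 1 was changed in RBPMS KD (Lims2) and 4 in QKI KD (Rsu1, Lims1, Lims2 and Vcl), all lower. Rsu1, a partner of the PINCH proteins, was 70.0 to 72.1 CPM in control and 19.4 to 20.2 in QKI KD (log2 fold change -1.85; edgeR, adjusted p = 9.72e-17). Lims1, which encodes PINCH1 of the complex with integrin-linked kinase, fell by 1.23 in QKI KD (edgeR, adjusted p = 9.01e-15), and Vcl, vinculin, by 1.03 (edgeR, adjusted p = 6.03e-13). Vcl missed the fold criterion without control library 3 (-0.997), with a mean of at least 200 counts (-0.997), with library totals (-0.95) and in the normalised table (-0.898). In RBPMS KD the values of Rsu1, Lims1 and Vcl lay between -0.22 and 0.30.

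Of 9 trafficking genes and surface partners 6 passed by adjusted p alone in RBPMS KD, near the 59.4% of all genes, with log2 fold changes of all 9 between -0.54 and 0.40. In QKI KD 7 of the 9 passed by adjusted p alone, all lower, against 66.9% of all genes, 34.0% lower. By both criteria 2 were changed there, Rab21, which fell by 1.43 (edgeR, adjusted p = 9.80e-15), and Cd9, a tetraspanin that associates with integrins, by 1.40 (edgeR, adjusted p = 3.54e-14). Dab2, a clathrin adaptor that removes integrins from the surface, was 1.09 lower in QKI KD than in RBPMS KD (edgeR, adjusted p = 6.01e-11). That difference missed the fold criterion with library totals (-0.96) and in the normalised table (-0.95).

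**Figure D5:**
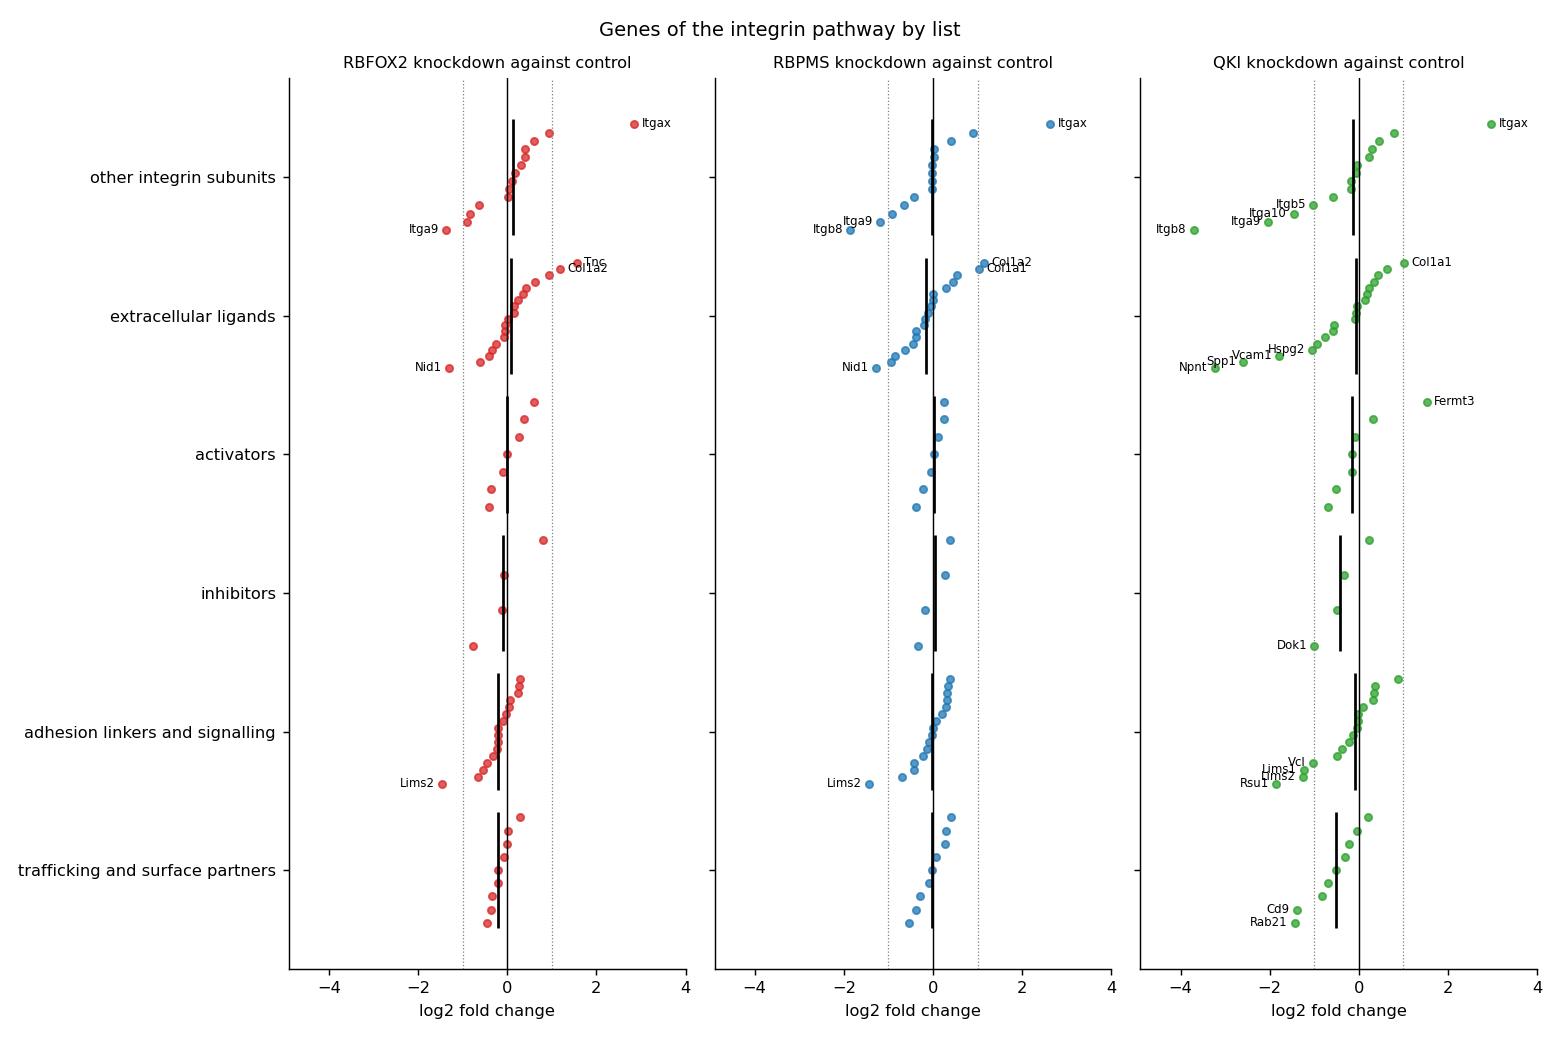
Log2 fold changes of the 68 genes tested from the 6 integrin pathway lists, with 1 point per gene, a black bar at the median of each list and dotted lines at -1 and 1. Names are given for genes past the criteria of adjusted p and fold, of which there are 7 in RBPMS KD and 18 in QKI KD, and by fold alone for 6 in RBFOX2 KD, which is a description.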

How the data were processed

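The authors deposited gene counts (33294 genes, 12 libraries) and a second table of normalised abundances (22320 genes), a signal on their own scale. The labels name FastQC 0.11.2, MultiQC 1.8, STAR 2.5.2a, edgeR 3.28.1 and DESeq2 1.30.0 and the build mRatBN7.2. The study's methods name a newer STAR and subsampling to a common depth, whereas the totals differed between libraries. Counts were fitted with edgeR 4.0.16 (R 4.3.3; filterByExpr, TMM, glmQLFit and glmQLFTest, two-sided) with 1 coefficient per group, and p-values were adjusted by Benjamini-Hochberg over 18438 genes. The CPM values and the log2 fold changes come from that fit. Each standard error was taken as the absolute log2 fold change over the square root of the test's F statistic. The 95% intervals use normal quantiles of it, so they are nominal and narrower than the test implies. That of Itga8 in RBPMS KD (-0.318 to -0.00039) excluded no difference although its unadjusted p was 0.0666 in edgeR. The normalised table was tested with limma 3.58.1 on log2(value + 1) as an alternative, and DESeq2 1.42.0 as another. The members and lists were chosen with earlier results of these data known. Named are the 10 members, the siRNA targets, the 5 nearest profiles, and up to 6 changed genes per list with at least 5 CPM, plus Itgav, Itgb3 and Itgb5. Scripts were tested on simulated data. Sequences come from RefSeq (GRCr8) and the study's oligonucleotide list.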

Additional observations from a re-analysis of the deposited data

Results flagged for a closer look

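Itga3 and Itga7 are listed because the direct test of QKI KD against RBPMS KD separated them, with log2 fold changes of -1.58 and -2.52 (edgeR's quasi-likelihood test, adjusted p = 4.09e-14 and 1.46e-18). Itga7 is also listed because all its RBFOX2 KD libraries lay above control (log2 fold change 0.47), whereas all its RBPMS KD libraries (-0.41) and all its QKI KD libraries (-2.93) lay below. Itga8 is listed because all its RBFOX2 KD libraries lay below control (-0.36) and all its QKI KD libraries above (0.81), while its RBPMS KD libraries lay below (-0.16). The differences between RBFOX2 KD and the other knockdowns were not tested.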

How the results depend on the processing

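Itga3 and Itga7 stayed past the criteria in both QKI KD comparisons under every alternative run. The count of changed members in RBPMS KD was 1 with library totals, no filter, DESeq2 or halved counts (an alternative chosen after seeing the data), and 0 to 2 without single libraries. By adjusted p alone the members numbered 4 of 9 in RBPMS KD, 6 in QKI KD and 6 between these, against 59.4%, 66.9% and 61.0% of all genes. The pathway genes numbered 45 of 68 in RBPMS KD and 53 in QKI KD, beside the same 59.4% and 66.9%. Counts in RBFOX2 KD used the fold alone, a choice made after seeing the data, and counts by adjusted p alone are not given there. Without single libraries the members were 2 in QKI KD, 2 to 3 between QKI KD and RBPMS KD, and 2 to 3 in RBFOX2 KD, and the pathway genes 6 to 8 in RBPMS KD, 15 to 17 in QKI KD and 7 to 8 in RBFOX2 KD. The direction turned for Itgb1 in QKI KD in the normalised table (0.0678 with either pseudocount and without the filter), and between QKI KD and RBPMS KD for Itga2 in that table (-0.0335, or -0.0317 with a pseudocount of 5) and for Itga6 in it (0.0391), with library totals (0.0893) and with a mean of at least 200 counts (0.00388). Without single libraries, Itga3 in RBPMS KD ranged from -0.0657 to 0.0447 (0.0196 without RBPMS KD library 2), Itga11 in QKI KD from -0.638 to 0.0690, and, between QKI KD and RBPMS KD, Itga2 from -0.0803 to 0.226 (-0.00577 without RBPMS KD library 3) and Itga6 from -0.113 to 0.00317. The causes were not tested. Library totals moved the median of all genes between QKI KD and RBPMS KD to 0.12. Of 604 alternative values for members, 556 counted as the same. That meant the same direction and side of the adjusted p threshold or, in RBFOX2 KD, a shift smaller than the combined SD of both groups. The 8 that moved were of Itgb1 and Itga7 in RBFOX2 KD and kept their direction. Itgb1 was -2.63 with library totals and -2.51 in the normalised table, and Itga7 was 0.53 in each. Itga8 passed the fold criterion between QKI KD and RBPMS KD under some alternatives, at 0.86 to 1.04 without single libraries.

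Same-numbered libraries did not deviate together (correlations -0.34 to 0.25), so replicate numbers are not read as pairs. With the replicate number as a block the changed members were 0 in RBPMS KD, 2 in QKI KD and 2 between them, and the pathway genes 7 and 18. Depth limits Itga2, Itga4 and Itga11, with at most 170, 6 and 55 counts per library.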

Other observations

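The genes with the nearest profiles were also looked up for 3 alpha members outside the rule for named genes, chosen after their values were seen, and are given as values. Close fold changes follow from picking genes by profile. Nearest to Itga7 were Rassf4, a Ras association domain protein (root mean square difference of centred log2 CPM 0.162), Npnt, nephronectin (0.187), Epyc, epiphycan (0.220), and Col6a3, a chain of type VI collagen (0.233). Their log2 fold changes in QKI KD were -2.89, -3.23, -3.21 and -3.34, beside -2.93 for Itga7. In RBFOX2 KD they were 0.28, 0.62, -0.02 and 0.61, beside 0.47 for Itga7. The next nearest, LOC102548080 (0.234), was at -2.84 in QKI KD and 0.77 in RBFOX2 KD. In RBPMS KD the genes were at -0.24, -0.38, -0.51, -0.39 and, for LOC102548080, 0.08, beside -0.41 for Itga7. Nearest to Itga5 was LOC500881 (0.0591), followed by G3bp1, a stress granule protein (0.0666), which had log2 fold changes of 1.07 in RBPMS KD, 0.64 in RBFOX2 KD and 0.53 in QKI KD. Nearest to Itga1 was Flnc, the muscle filamin (0.0940), with 1.02 in RBPMS KD, 1.20 in RBFOX2 KD and 0.62 in QKI KD, beside 0.91, 1.07 and 0.61 for Itga1.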
